A study of Homo sapiens with 27 samples.

Results

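RGS proteins (regulators of G protein signaling) were followed as a set of 10 genes, *RGS2*, *RGS1*, *RGS3*, *RGS4*, *RGS5*, *RGS10*, *RGS12*, *RGS16*, *RGS19* and *RGS20*, out of 61533 genes counted. The genes were taken by symbol, and *RGS2* leads the set because it was chosen by its measured values, as a gene with lower counts under the FAK inhibitor than in the control on every day. Its difference between inhibitor and control is therefore given as a description, without a test, while the other 9 genes were tested together with all genes of the table. The cells were 92.1, an established uveal melanoma (UM) cell line with mutant *GNAQ*, treated with VS-4718, an inhibitor of focal adhesion kinase (FAKi), at 100 nM or with DMSO as control, with medium and treatment renewed every 72 h in both arms. There were 27 mRNA libraries in 9 groups of 3, a DMSO group at day 0 and, for days 3, 7, 14 and 21, a group of each treatment. All groups carry the same mutant *GNAQ* and come from a single cell line.

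A G protein alpha subunit is active while it holds GTP, and RGS proteins are the GTPase-activating proteins that speed the return of the alpha subunit to its GDP-bound, inactive form. RGS2 is known for its preference for the Gαq family, most other members of its R4 subfamily act on both Gαi and Gαq, and members of the RZ and R12 subfamilies act mainly on Gαi-type or Gαz subunits. In UM the Gαq pathway is the usual site of driver mutations, and the common codon changes weaken GTP hydrolysis itself, so that the response to RGS proteins is one of the properties in which mutant and wild-type alpha subunits differ.

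Total counts per library were between 12161994 and 43651551, with a median of 24759579, and 1 CPM (a count scaled by library size, with TMM over all 27 libraries) stood for 12.3 to 44.9 counts. Of the 8 melanocyte markers examined, the summed level was between 9573 and 15025 CPM, while the endothelial and epithelial markers each summed to under 1 CPM in every library. In 9 of the 27 libraries the nearest library was of another group, and 3 of these had the largest mean distances to their own group. FAKi day 7 replicate 1 was nearest to FAKi day 14 replicate 1, at a distance of 0.215 (root mean square difference of log2 CPM over 16982 genes), against a mean of 0.724 to its own group and 0.228 for the closest pair of replicates. The chi-square of these paired libraries was 1.64 per degree of freedom, where the lowest value of the 27 replicate pairs was 3.04. DMSO day 3 replicate 1 was nearest to DMSO day 0 replicate 3, at 0.261 against 0.691 to its own group, and DMSO day 21 replicate 3 was nearest to DMSO day 3 replicate 3, at 0.324 against 0.744. The count column of this last library also carries an extra digit in its day, and was assigned by the sample's title. Values without one of these 3 libraries, or without all 3, are given where they change a call or the side of the adjusted p. The mitochondrial share of counts was 5.49 to 26.97% over all libraries. In DMSO it was 18.1% in replicate 1 of day 3 against 9.59% and 8.61% in replicates 2 and 3, and 5.49%, 5.49% and 9.75% at day 21, while FAKi had 16.8 to 18.7% at day 3 and 10.7 to 11.2% at day 21. The methods describe triplicate plating as well as biological replicates of the experiment, and the labels do not say which the replicate number counts, so the p-values may measure technical spread only.

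*RGS2* (ENSG00000116741.8, plus strand of chromosome 1, 192809039 to 192812275 on hg38) was counted on a protein-coding transcript of 5 exons, none of which overlaps an exon of another gene in GENCODE 44. *RGS10* (ENSG00000148908.15, minus strand of chromosome 10, 119499817 to 119542719) and *RGS16* (ENSG00000143333.7, minus strand of chromosome 1, 182598623 to 182604389) were counted on 5 exons each, likewise without overlap. The 250 bases before the start of each of these 3 genes are shown because *RGS2*, *RGS16* and *RGS10* had the largest mean differences between FAKi and DMSO among the members, and because the counted transcript begins at the same base as the RefSeq gene. They are from RefSeq on GRCh38.p14, 5′ to 3′ on the strand of the gene, at chr1:192808789-192809038 for *RGS2*, chr10:119542720-119542969 for *RGS10* and chr1:182604390-182604639 for *RGS16*. Capitals mark TGACG, the core of the cAMP response element (CRE), or its reverse complement.
RGS2: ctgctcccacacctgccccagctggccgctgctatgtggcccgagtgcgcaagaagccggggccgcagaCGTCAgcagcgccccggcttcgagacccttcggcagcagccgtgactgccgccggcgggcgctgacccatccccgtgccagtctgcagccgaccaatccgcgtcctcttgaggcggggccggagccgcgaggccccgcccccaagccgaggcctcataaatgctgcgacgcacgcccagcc
RGS10: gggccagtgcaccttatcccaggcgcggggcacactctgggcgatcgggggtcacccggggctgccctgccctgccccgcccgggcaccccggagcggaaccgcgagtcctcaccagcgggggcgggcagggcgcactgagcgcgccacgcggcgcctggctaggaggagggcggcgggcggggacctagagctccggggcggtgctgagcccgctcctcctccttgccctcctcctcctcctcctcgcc
RGS16: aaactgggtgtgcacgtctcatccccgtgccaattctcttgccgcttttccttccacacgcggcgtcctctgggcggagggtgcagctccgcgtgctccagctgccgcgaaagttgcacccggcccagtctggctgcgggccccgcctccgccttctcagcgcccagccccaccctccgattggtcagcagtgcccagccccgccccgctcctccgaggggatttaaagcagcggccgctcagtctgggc
RefSeq gave a promoter for 9 of the 10 genes, and 5 short motifs were searched on both strands in the 250 bases before the start. Only the first RefSeq entry of a gene was used, of up to 5. Its start lay 15527 bases from that of the counted transcript for *RGS3* and 30177 for *RGS12*, and 490 for *RGS4* and 446 for *RGS19*. For these genes the search does not cover the bases before the counted transcript. The core motif TGACG lay once before *RGS2*, its first base 181 bases upstream, and once before *RGS1*, and 21.2% of 35116 promoters hold it. The 8-base form TGACGTCA, the full CRE, which contains the core, was in 1.65% of promoters. The AP-1 site TGANTCA was in 6.57% and the E-box CACGTG in 6.34%, and none of the 9 searched stretches held these 3 motifs. The TEAD motif GGAATG, present in 11.9% of promoters, lay once before *RGS5*. The shown promoters were rich in G and C, at 72.8% for *RGS2*, 77.2% for *RGS10* and 68.4% for *RGS16*.

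*RGS2* was low to moderate in all libraries, and its level in the 12 FAKi libraries never reached that of any of the 15 DMSO libraries. The FAKi libraries lay between 2.26 and 3.86 CPM (median 3.24) and the DMSO libraries between 5.44 and 17.5 CPM (median 10.3). In a bulk sample fewer cells with the transcript and less transcript per cell cannot be told apart. At day 0 the DMSO libraries had 193, 116 and 191 counts, or 11.9, 9.46 and 10.3 CPM.

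At day 3 the DMSO libraries had 5.85, 13.6 and 16.5 CPM of *RGS2* and the FAKi libraries 3.36, 3.33 and 3.14 CPM. The groups did not overlap, and the DMSO group was the most spread of all, its replicate 1 holding less than any day 0 library. The means were 11.99 ± 5.51 and 3.28 ± 0.121 CPM (SD, n = 3 each), or -1.85 as a log2 fold change (SE 0.35), or -2.17 without DMSO day 3 replicate 1. At day 7 the DMSO libraries had 7.53, 5.44 and 5.76 CPM of *RGS2* and the FAKi libraries 2.88, 2.26 and 2.66 CPM. This was the lowest day for both treatments and the day of the smallest difference, with 6.24 ± 1.13 and 2.60 ± 0.311 CPM (SD, n = 3 each) and a log2 fold change of -1.27 (SE 0.22), or -1.37 without FAKi day 7 replicate 1.

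At day 14 *RGS2* stood at 9.28, 9.62 and 10.3 CPM in DMSO and at 3.699, 2.96 and 2.59 CPM in FAKi, again with no overlap. The means of 9.73 ± 0.505 and 3.08 ± 0.567 CPM (SD, n = 3 each) gave a log2 fold change of -1.66 (SE 0.22). At day 21 *RGS2* had 17.5, 17.3 and 14.4 CPM in DMSO and 3.36, 3.86 and 3.53 CPM in FAKi. These DMSO libraries include the highest of the series and, with DMSO day 3 replicates 2 and 3, the 5 lowest mitochondrial shares, and the part of that share in the result was not tested. With 16.4 ± 1.76 against 3.58 ± 0.257 CPM (SD, n = 3 each) the difference was the largest of the 4 days, at a log2 fold change of -2.15 (SE 0.17), or -2.22 without DMSO day 21 replicate 3. In the fit of the 24 libraries of days 3 to 21 the mean log2 fold change of *RGS2* over the 4 days was -1.73 (SE 0.13), and -1.86 without the 3 libraries named above. As a share of the DMSO mean, *RGS2* in FAKi was lower by 72.7%, 58.4%, 68.3% and 78.2% in the order of the days.

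**Figure D1:**
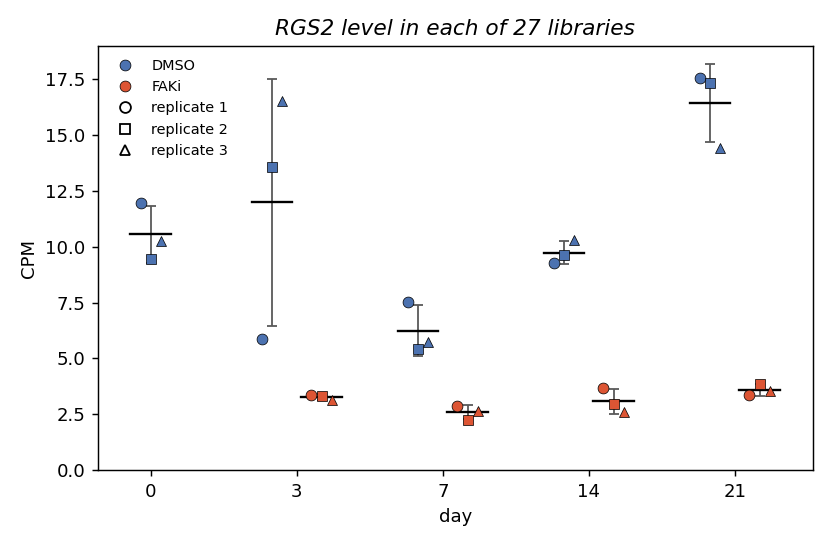
RGS2 level (CPM, TMM scaled over 27 libraries) against day, with the days as equally spaced categories, DMSO in blue and FAKi in red. Symbols are single libraries by replicate number, lines group means and bars SD (n = 3). All FAKi libraries lie between 2.26 and 3.86 CPM, below all DMSO libraries, which lie between 5.44 and 17.5 CPM.

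Ordered by mean, the *RGS2* level was highest in DMSO at day 21, followed by DMSO at days 3, 0, 14 and 7 and then by FAKi at days 21, 3, 14 and 7. Neighbours in this order overlapped in their library values except DMSO day 14 over DMSO day 7, and DMSO day 7 over FAKi day 21. The highest DMSO mean was 2.63 times the lowest, whereas the highest FAKi mean was 1.38 times the lowest.

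The DMSO values of days 3 to 21 took part in the choice of *RGS2*, so its course in DMSO is likewise given without a test. Against day 0 its log2 fold change was 0.15 (SE 0.33) at day 3, -0.77 (SE 0.14) at day 7, -0.12 (SE 0.15) at day 14 and 0.63 (SE 0.16) at day 21. All DMSO libraries of day 7 lay below those of day 0, and all of day 21 above them. These 4 comparisons share the day 0 libraries.

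Among the other members, *RGS16*, *RGS10* and *RGS3* were lower in FAKi over the 4 days, and the remaining genes with enough counts were not called. Only 7 of these 9 genes had the 20 counts needed for edgeR's quasi-likelihood test. In a comparison of 6 libraries a called gene has a Benjamini-Hochberg adjusted p not above 0.05 together with a log2 fold change beyond 1 in either direction. By the mean effect over the 4 days 3 of the 7 were called, all lower, at an adjusted p of at most 0.05 without a fold threshold, beside 15.7% of all 27897 genes tested (in either direction). The middle value of the 7 mean effects was that of *RGS19*, at -0.02 on the log2 scale, beside a median of 0.0063 over all genes. The lowest mitochondrial shares were in DMSO day 3 replicates 2 and 3 and the DMSO libraries of day 21. *RGS16*, *RGS10* and *RGS3* were each higher in these libraries than in any other. The lowest values there were 14.5, 20.5 and 44.9 CPM, against at most 13.0, 19.3 and 44.7 CPM elsewhere. The part of that share in these results was not tested.

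Day by day, calls among these 7 were few. At day 3 edgeR called 0 (background 0%) and DESeq2 called 0 (background 3.26%), although *RGS10* (0.039) and *RGS16* (0.015) passed the adjusted p of DESeq2, as did 8.06% of all genes. At this day 5 of 7 had an unadjusted p under 0.05, beside 23.8% of all genes. At day 7 edgeR called 0 (background 0.0269% with or without the fold threshold) and DESeq2 called 0 (background 0.466%), and 1 had an unadjusted p under 0.05, beside 8.77%. At day 14 edgeR called 0 (background 1.66%) and DESeq2 called 0 (background 1.68%), 1 passed the adjusted p alone (background 12.4%), and 2 had an unadjusted p under 0.05 (background 24.6%). At day 21 edgeR called 1 (background 5.28%) and DESeq2 called 1 (background 7.9%), while 3 passed the adjusted p alone (background 11.6%). Every FAKi library lay below every DMSO library for 4, 1, 3 and 3 of the 7 genes at days 3, 7, 14 and 21, beside 15.8%, 8.46%, 13.8% and 18.9% of all genes. Without DMSO day 3 replicate 1 the genes *RGS3* (-0.44, adjusted p = 0.041, edgeR), *RGS10* (-1.15, 0.00059), *RGS16* (-0.96, 0.0040) and *RGS19* (-0.60, 0.036) passed the adjusted p at day 3, in a fit where 32.7% of all genes passed it. With all libraries kept, *RGS16* alone of the 7 had FAKi values entirely under the DMSO values at each of the 4 time points. The same was true of 0.411% of the 21147 genes tested at every time point.

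**Figure D2:**
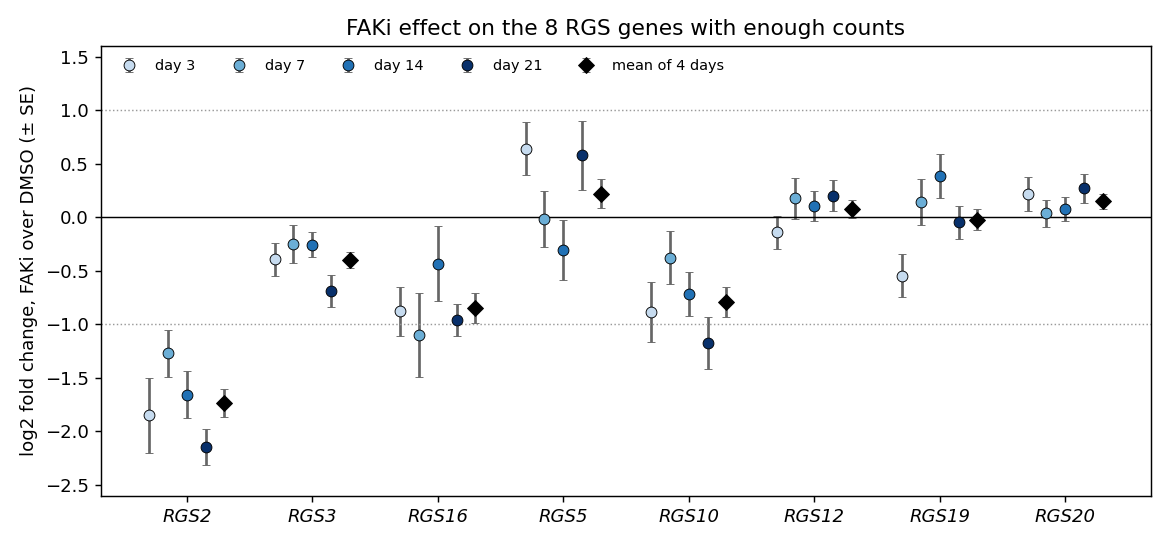
Log2 fold change of FAKi over DMSO (edgeR) for the 8 RGS genes with at least 20 counts in the fit, by day (circles, light to dark) and as the mean over the 4 days (diamonds), with bars for SE and dotted lines at the fold threshold. RGS2, which was chosen on this contrast, lies between -1.27 and -2.15, and RGS3, RGS10 and RGS16 lie below 0 on each day.

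*RGS16* belongs with *RGS2* to the R4 subfamily and is a GTPase-activating protein for Gαi and Gαq. At day 3 the DMSO libraries had 13.0, 14.5 and 17.3 CPM of *RGS16* and the FAKi libraries 7.06, 6.52 and 10.5 CPM. At day 7 the DMSO libraries had 11.1, 9.43 and 9.75 CPM and the FAKi libraries 1.64, 6.05 and 6.55 CPM. The lowest of these, FAKi day 7 replicate 1, is the library that was nearest to a day 14 library, and its value lay at the level of day 14, when all 6 libraries were low. At day 14 *RGS16* had 2.17, 2.48 and 2.61 CPM in DMSO and 1.71, 1.91 and 1.76 CPM in FAKi. At day 21 it had 15.2, 15.0 and 16.0 CPM in DMSO and 8.004, 7.88 and 7.08 CPM in FAKi. The groups did not overlap on any day, and both treatments were lower at day 14 than on any other day, apart from FAKi day 7 replicate 1.

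In the order of the days, *RGS16* had log2 fold changes of -0.88, -1.10, -0.43 and -0.96. At day 21 it passed the adjusted p (0.0095, edgeR) and fell just short of the fold. With all 27 libraries in 1 fit it was called (-1.01, adjusted p = 0.0071, edgeR), as were 6.94% of all genes. Over the 14 alternatives tried for day 21 its adjusted p rose to at most 0.070 (edgeR), with values between -1.01 and -0.90. At day 7 (adjusted p = 0.48, edgeR) the value was -0.69 without FAKi day 7 replicate 1 (adjusted p = 0.030, edgeR). In that fit 2.96% of all genes passed the adjusted p, against 0.0269% with all libraries of the day. The mean over the 4 days was -0.85 (SE 0.14, adjusted p = 0.00028, edgeR), and -0.75 when FAKi day 7 replicate 1, DMSO day 3 replicate 1 and DMSO day 21 replicate 3, the libraries farthest from their own groups, were left out together (adjusted p = 2.8e-07, edgeR), in a fit that called 33% of all genes.

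*RGS10*, a small member of the R12 subfamily that acts on Gαi-type subunits and not on Gαq, had 12.3, 20.5 and 29.6 CPM in the DMSO libraries of day 3 and 10.6, 12.2 and 10.6 CPM in the FAKi libraries. At day 7 the DMSO libraries had 19.3, 16.5 and 18.6 CPM and the FAKi libraries 8.43, 16.7 and 17.1 CPM. The groups were apart at day 3, narrowly so because of DMSO replicate 1, and overlapped at day 7. At day 14 *RGS10* had 13.6, 9.21 and 13.5 CPM in DMSO and 8.09, 8.63 and 5.45 CPM in FAKi. At day 21 it had 42.2, 45.7 and 24.1 CPM in DMSO and 18.7, 15.7 and 13.4 CPM in FAKi, and the groups were apart on both days.

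In the order of the days, *RGS10* had log2 fold changes of -0.89, -0.38, -0.72 and -1.17, and the last was the call of day 21 (SE 0.24, adjusted p = 0.024, edgeR). This call was lost in 5 of the 6 fits that left out 1 library, namely each of the FAKi libraries or DMSO day 21 replicate 1 or 2, with log2 fold changes between -1.30 and -0.998 and adjusted p between 0.065 and 0.12 (edgeR). Those 5 fits called 52 to 412 genes in all, against 1226 with all 6 libraries. It stood at -1.40 without DMSO day 21 replicate 3 (adjusted p = 1.0e-07, edgeR), in a fit that called 18.7% of all genes. Same-numbered libraries of day 21 deviated together to some degree, and with the number as a block the value was -1.13 (adjusted p = 0.00048, edgeR). The -1.15 at day 3 without DMSO day 3 replicate 1 was a call by both criteria, as for 12.7% of all genes in that fit. At day 14 it passed the adjusted p alone (0.025, edgeR). The mean over the 4 days was -0.79 (SE 0.14, adjusted p = 0.00043, edgeR), and -0.85 without the 3 libraries farthest from their own groups.

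*RGS3*, another R4 member and known to act on Gαi and Gαq, had 44.7, 44.9 and 55.5 CPM in the DMSO libraries of day 3 and 38.96, 37.1 and 33.3 CPM in the FAKi libraries. At day 21 the DMSO libraries had 75.1, 71.7 and 52.1 CPM of *RGS3* and the FAKi libraries 39.3, 39.9 and 39.4 CPM. The DMSO libraries lay above the FAKi libraries on both days, the FAKi libraries of day 21 within a narrow band. At day 7 *RGS3* had 31.1, 37.2 and 33.0 CPM in DMSO and 28.4, 34.7 and 22.2 CPM in FAKi, which overlapped. At day 14 it had 31.3, 32.6 and 34.3 CPM in DMSO and 28.9, 26.8 and 26.8 CPM in FAKi. In the order of the days, *RGS3* had log2 fold changes of -0.39, -0.25, -0.25 and -0.69, and only the last passed the adjusted p (0.027, edgeR). The mean over the 4 days was -0.40 (SE 0.08, adjusted p = 0.00080, edgeR), and -0.45 without the 3 libraries farthest from their own groups (adjusted p = 6.8e-06, edgeR). Without DMSO day 21 replicate 3 the day 21 value was -0.82 (adjusted p = 1.3e-06, edgeR), in a fit where 48.5% of all genes passed the adjusted p. In the fits that left out 1 other library of that day, 0.229 to 2.19% did. Over the 14 alternatives tried for day 21 the adjusted p of *RGS3* rose to at most 0.13 (edgeR), with values between -0.82 and -0.61.

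**Figure D3:**
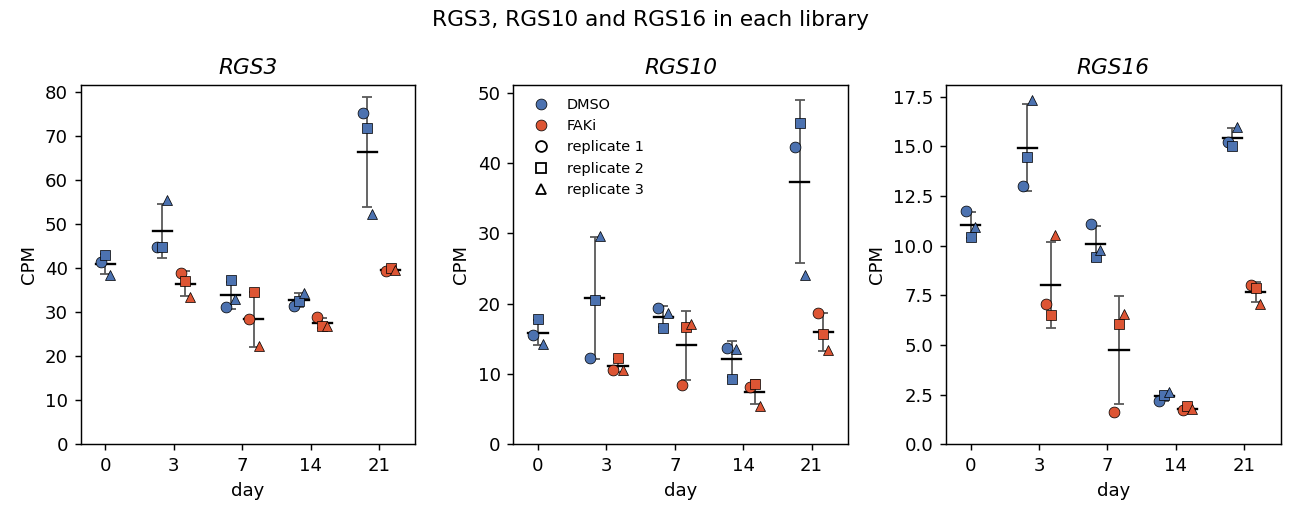
Levels of RGS3, RGS10 and RGS16 (CPM) against day in each library, with DMSO in blue, FAKi in red, lines for means and bars for SD (n = 3). RGS16 is under 3 CPM in all 6 libraries of day 14 and in FAKi day 7 replicate 1, and RGS10 is highest in DMSO at day 21 (24.1 to 45.7 CPM).

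*RGS20* and *RGS19* belong to the RZ subfamily, of which RGS20 is known for its action on Gαz and RGS19 for its binding of Gαi. *RGS20* was the highest member per kilobase as a mean over all libraries, and had means in the order of the days of 46.1, 50.2, 43.7 and 63.5 CPM in FAKi, against 39.95, 48.6, 41.3 and 54.6 CPM in DMSO. The libraries of both treatments overlapped on each day, and the mean effect was 0.15 (SE 0.07, adjusted p = 0.13, edgeR). *RGS19* had 6.15, 6.52 and 7.44 CPM in FAKi and 9.03, 8.76 and 11.8 CPM in DMSO at day 3, without overlap, and a log2 fold change of -0.55 (adjusted p = 0.15, edgeR). At day 14 its FAKi libraries had 10.8, 9.53 and 7.37 CPM and its DMSO libraries 7.40, 5.62 and 8.19 CPM, a log2 fold change of 0.38 (adjusted p = 0.26, edgeR). Its mean effect was -0.02 (SE 0.10, adjusted p = 0.95, edgeR).

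*RGS12*, a large R12 protein that also binds Ras and holds a GoLoco motif, had means between 18.2 and 27.1 CPM in FAKi and between 18.1 and 25.2 CPM in DMSO, and a mean effect of 0.08 (SE 0.08, adjusted p = 0.56, edgeR). *RGS5*, an R4 member best known from pericytes, was low. It had 2.55, 2.81 and 3.21 CPM in FAKi and 1.94, 1.75 and 1.83 CPM in DMSO at day 3, with all FAKi libraries higher, and a log2 fold change of 0.64 (SE 0.25, adjusted p = 0.165, edgeR). Its mean effect was 0.22 (SE 0.13, adjusted p = 0.27, edgeR). A second entry with the symbol *RGS5* (ENSG00000232995.7), a lncRNA on the same strand that shares exon bases with the first (ENSG00000143248.13), had a similar level of 0.602 to 5.25 CPM, so reads may be split between both, and *RGS5* is uncertain. *RGS1*, known from immune cells, had 2 counts in 1 library, and *RGS4*, known from neurons and heart, 5 counts in 3 libraries. A count of 0 here allows up to 3 counts, or 0.0668 to 0.245 CPM depending on the library, and covers counting error only. *RGS1* was counted on a transcript with a retained intron, so counts on its other transcripts may be missing.

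**Figure D4:**
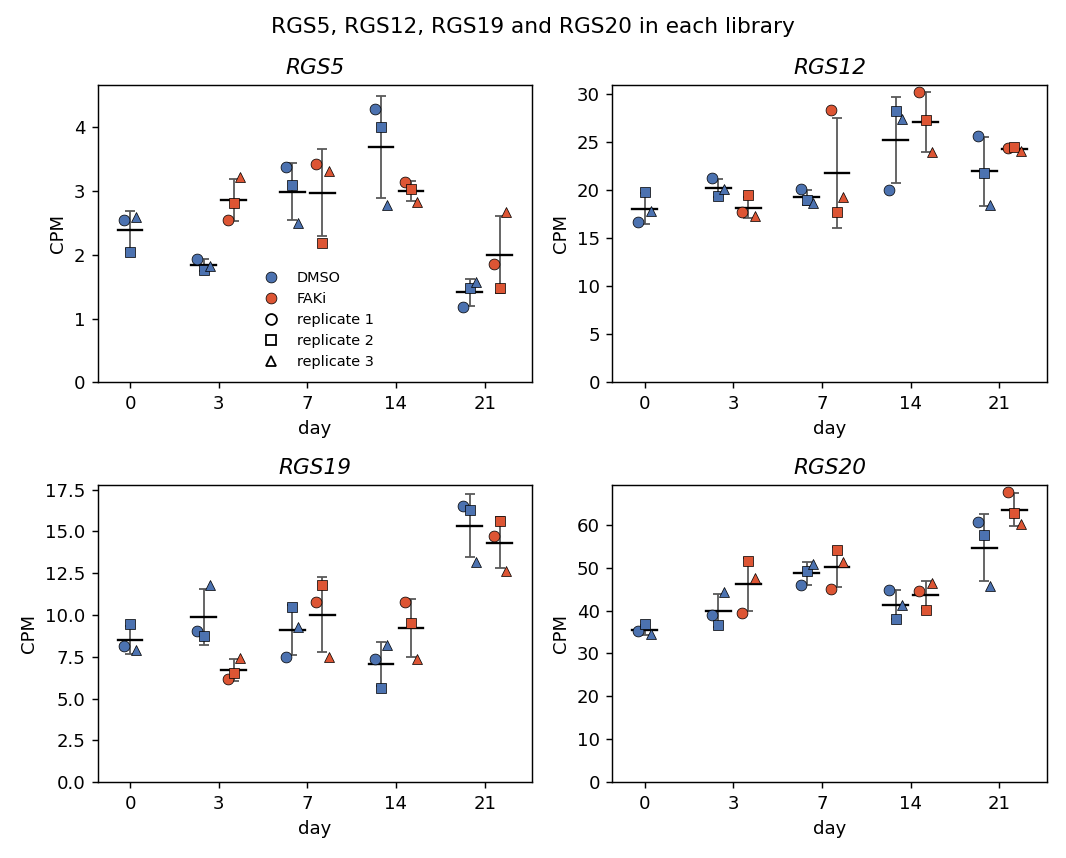
Levels of RGS5, RGS12, RGS19 and RGS20 (CPM) against day in each library, with DMSO in blue, FAKi in red, lines for means and bars for SD (n = 3). The treatments overlap except for RGS5 and RGS19 at day 3, where FAKi RGS5 is higher (2.55 to 3.21 against 1.75 to 1.94 CPM) and FAKi RGS19 lower (6.15 to 7.44 against 8.76 to 11.8 CPM).

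Per kilobase of counted exon and averaged over the 27 libraries, the order of the members was *RGS20* (22.3 CPM per kilobase), *RGS10* (18.6), *RGS3* (9.07), *RGS19* (6.23), *RGS2* (5.60), *RGS12* (3.98), *RGS16* (3.52) and *RGS5* (0.443). By group, *RGS10* stood above *RGS20* in DMSO at day 0 (17.4 against 16.9 CPM per kilobase), day 3 (22.8 against 19.0) and day 21 (40.8 against 25.9), and below it in the other 6 groups. At day 21 *RGS2* stood at 12.3 CPM per kilobase in DMSO, above *RGS19* at 9.53, and at 2.67 in FAKi, below *RGS19* at 8.91.

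Whether the FAKi effect differed among the 4 days was tested for the same 7 genes. edgeR called 0 of them, beside 10.3% of all genes, and DESeq2 called 0, beside 18.7%, while 2 had an unadjusted p under 0.05, beside 27.2%. These were *RGS19* (adjusted p = 0.12, edgeR) and *RGS5* (adjusted p = 0.18, edgeR). Without the 3 libraries farthest from their own groups the test called 3, namely *RGS10* (adjusted p = 0.0012, edgeR), *RGS19* (0.036, edgeR) and *RGS3* (0.045, edgeR), beside 38.4% of all genes.

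In DMSO against day 0 the same 7 of the 9 other members had enough counts. At day 3 edgeR called 0 (background 0%, also by the adjusted p alone) and DESeq2 called 0 (background 0.106%), and 1 had an unadjusted p under 0.05 (*RGS16*), beside 9.86%. Without DMSO day 3 replicate 1, *RGS10* passed the adjusted p at 0.64 (adjusted p = 0.027, edgeR), as did 18.6% of all genes. At day 7 edgeR called 0 (background 0.699%) and DESeq2 called 0 (background 0.402%), while 2 passed the adjusted p alone, beside 4.94%, and 2 had an unadjusted p under 0.05, beside 16.9%. These were *RGS3* at -0.29 and *RGS20* at 0.44. At day 14 edgeR called 1 (background 6.07%), which was *RGS16* at -2.19 (SE 0.18, adjusted p = 1.3e-06, edgeR), and 3 passed the adjusted p alone (background 28.3%), the others being *RGS3* at -0.32 and *RGS12* at 0.48.

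At day 21 edgeR called 1 (background 23.3%), which was *RGS10* at 1.23 (SE 0.24, adjusted p = 0.0057, edgeR), and 6 of the 7 passed the adjusted p alone (background 44.9%). Of these, *RGS3*, *RGS10*, *RGS16*, *RGS19* and *RGS20* were higher and *RGS5* lower than at day 0. Over the 14 alternatives tried, the adjusted p rose to at most 0.14 for *RGS5*, 0.16 for *RGS16* and 0.053 for *RGS3* (edgeR). It stayed under 0.05 for *RGS10*, *RGS19* and *RGS20*. *RGS19* stood at 0.85 and *RGS3* at 0.69 on the log2 scale. Without DMSO day 21 replicate 3 *RGS10* stood at 1.47 (adjusted p = 2.9e-18, edgeR) and *RGS12* also passed, at 0.39 (adjusted p = 0.0012, edgeR), in a fit where 69.7% of all genes did.

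Of the other 11 RGS genes of the table *RGS14* was the highest, with a mean of 17.4 CPM over all libraries, and *RGS9*, known from photoreceptors, had 2.44 CPM, while the other 9 were below 1 CPM. *RGS14* was counted on a transcript with a retained intron and *RGS9* on one without a defined coding sequence, so counts on their other transcripts may be missing. Of the 11, 5 had enough counts for the mean effect, 0 were called by edgeR on any day or for the mean (background 15.7% for the mean), and 1 had an unadjusted p under 0.05 for the mean, beside 30.3% of all genes (*RGS7*, -1.66, adjusted p = 0.056, edgeR), a gene with at most 13 counts in a library, and 15.9% of whose exon bases lie opposite an exon of another gene. *RGS9* had a mean effect of 0.13 (adjusted p = 0.61, edgeR), over days of opposite direction. It was higher in every FAKi library at day 3 (means of 2.90 against 2.07 CPM) and lower in every one at day 21 (1.35 against 2.29 CPM).

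RGS proteins act on the G proteins between receptor and effector, and over 4 lists of such genes 7 of 52 tested, or 13.5%, were called for the mean FAKi effect, near the 15.7% of all genes. Of 16 alpha subunit genes 13 were tested and 0 were called by edgeR, with 2 at an unadjusted p under 0.05 (30.3% of all genes), *GNAI3* (-0.20, adjusted p = 0.069, edgeR) and *GNAI1* (-0.14, adjusted p = 0.15, edgeR). *GNAQ* itself had -0.12 (adjusted p = 0.38, edgeR) and *GNA11* 0.11 (adjusted p = 0.33, edgeR). Of 17 beta and gamma subunit genes 13 were tested and 4 were called, *GNG7* (-0.30), *GNG10* (-0.44) and *GNG11* (-0.52) lower and *GNB3* (0.47) higher, and at day 21 *GNG10* and *GNG11* were called lower (background 5.28%). Of 7 Gαq effector genes tested 1 was called, *PLCB2*, a phospholipase C (-0.30, adjusted p = 0.011, edgeR), while *TRIO* had 0.38 (adjusted p = 0.065, edgeR). *PLCB2* was not lower on each day. Its means were 17.0, 14.2 and 11.1 CPM in FAKi against 20.2, 19.5 and 17.8 CPM in DMSO at days 3, 7 and 14. At day 21 every FAKi library was higher, at 18.5 to 19.3 CPM against 15.8 to 18.1 CPM. Of 21 RGS-domain and partner genes 19 were tested and 2 were called, both higher, the sorting nexin *SNX25* (0.53) and *GRK3*, a receptor kinase (0.50).

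Immediate early genes, the class of rapidly induced transcripts, were counted because *RGS2* is itself known as an inducible gene. For the mean effect 7 of 21 were called, 6 lower and 1 higher (*KLF6*), beside 15.7% of all genes. The FAKi effect differed among the 4 days for 11 of the 21 by the adjusted p (edgeR), beside 10.3% of all genes, so the mean does not describe each day. By day, 0 were called by edgeR at day 3 and at day 7, with 8 and 10 at an unadjusted p under 0.05 (23.8% and 8.77% of all genes), then 3 at day 14 (background 1.66%) and 6 of 20 tested at day 21 (background 5.28%). Those of day 14 were *EGR1* (2.41) and *CCN1* (1.10) higher and *ATF3* (-1.38) lower, and the 6 of day 21 were all lower. *PLK2*, a kinase gene of this list, had the smallest p for the mean, at -1.05 (SE 0.12, adjusted p = 1.8e-06, edgeR), followed by *NR4A1*, a nuclear receptor, at -0.64 (SE 0.08, adjusted p = 8.8e-06, edgeR). At day 14 *NR4A1* was not lower, with means of 117 CPM in FAKi and 109 CPM in DMSO. In the order of the days *PLK2* had -1.05, -1.19, -0.87 and -1.08, of which only the last was a call.

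The gene whose level was most like that of *RGS2* over the 9 group means of log2 CPM was *GADD45B*, a stress-inducible gene, with r = 0.991, out of 16981 genes with a mean of at least 1 CPM. Next came *PLK2* (0.936), the lncRNA ENSG00000280007 (0.935), *NKD2* (0.924) and *GTPBP4* (0.922), and 11 genes were above 0.9, beside a median of 0.013. *GADD45B* had in DMSO a lowest mean of 6.43 ± 0.753 CPM, at day 7, and a highest of 10.3 ± 1.86 CPM, at day 21, and lay between 3.88 and 4.39 CPM as group means in FAKi (SD, n = 3). Its order of groups was close to that of *RGS2*, with day 7 the lowest in each treatment. Among RGS genes the most alike were *RGS3* (0.763, rank 207), *RGS10* (0.708, rank 413) and *RGS16* (0.538, rank 1880). These correlations describe 9 points that share libraries, scaling and the division into FAKi and DMSO. Over the 27 single libraries r was lower, at 0.924 for *GADD45B*, 0.858 for *PLK2*, 0.713 for ENSG00000280007, 0.707 for *NKD2* and 0.846 for *GTPBP4*.

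**Figure D5:**
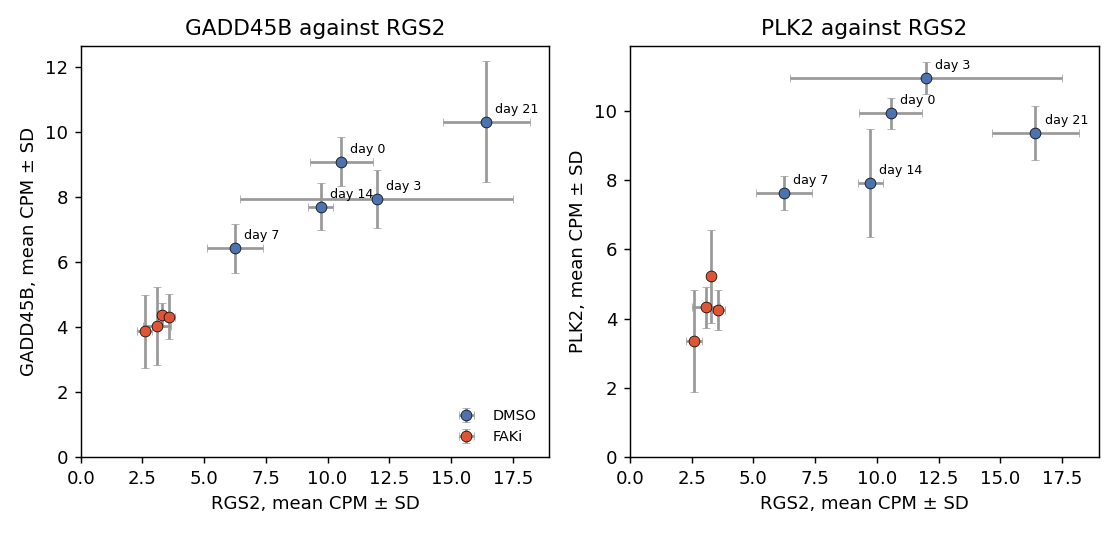
Group means of GADD45B (left) and PLK2 (right) against RGS2 (CPM), with SD bars (n = 3) for both genes, DMSO in blue labelled by day and the 4 FAKi groups in red. The FAKi groups lie together at 2.60 to 3.58 CPM of RGS2, apart from the DMSO groups at 6.24 to 16.4 CPM.

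Markers of cell types were read beside these results. The summed melanocyte markers overlapped between treatments at day 3, and were higher in every FAKi library at days 7, 14 and 21, at 14964 to 15025 CPM against 11799 to 14059 CPM at day 21. Of the 8 melanocyte markers, *TYRP1* and *PMEL* carried most of the sum, at means of 5553 and 4934 CPM over all libraries, before *SOX10* at 666 CPM. For the mean effect 3 of these 8 genes were called (15.7% of all genes), all higher, *DCT* (1.02), *TYR* (0.60) and *PMEL* (0.28). The immune list was carried by *CD68*, which is also a lysosomal protein of other cells. It summed to 23.4 to 26.6 CPM in FAKi and 59.0 to 70.9 CPM in DMSO at day 21, with *PTPRC* and *CD3E* at means of 0.016 and 0.012 CPM. The fibroblast list summed to 6.03 to 17.0 CPM over all libraries, and at day 21 to 6.03 to 6.97 CPM in FAKi against 7.10 to 10.6 CPM in DMSO, with *LUM* called lower (-1.15, adjusted p = 0.049, edgeR) and *COL3A1* at 0 to 0.146 CPM. The part of these markers in the RGS results was not tested.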

How the data were processed

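Per the labels, RNA of 92.1 cells was sequenced as 27 mRNA libraries from a stranded kit, and the submitters' notes name Trim Galore, FastQC 0.11.8, STAR 2.5.3a, HOMER and DESeq2. According to the file header, the authors deposited raw counts, made by HOMER over exons, with 1 GENCODE 39 transcript standing for each gene, on hg38, with no strand option shown. Of 61533 genes 17687 have no count. Groups were taken from treatment and day in the labels, and 0 count columns lacked a sample. The column of DMSO day 21 replicate 3 has an extra digit in its day and was assigned by the sample's description and title.

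Each comparison of 6 libraries, or of 24 for the mean effect over 4 days and for its difference among days, was fitted in edgeR 4.0.16 (R 4.3.3, limma 3.58.1) on genes with at least 20 counts in total, with TMM scaling, the quasi-likelihood test and Benjamini-Hochberg adjustment over all genes tested. Calls needed an adjusted p of at most 0.05 and, for comparisons of 6 libraries, an absolute log2 fold change over 1. The tested steps were tried on simulated counts with the same dispersion for all genes and no library unlike its own group. That trial does not cover spread of the kind seen in these libraries. Printed CPM were scaled over 27 libraries, and log2 CPM carry a prior count of 2. Exon overlap came from GENCODE 44, in which each counted RGS transcript has the same version and coordinates, and plots were drawn with matplotlib 3.10.9 in Python 3.11.15.

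The members and gene lists were chosen with earlier results of these data known. The DMSO comparisons were planned with *RGS2* as a tested gene, but its DMSO values took part in its choice, so its values there are printed without p. Named besides the 10 members were, from each list, genes called on at least 2 days (there were 0) or else the 2 with the smallest p for the mean effect, the 5 genes most like *RGS2*, and *GNAQ* and *GNA11*. Genes of counts of 5 or fewer, *KLF6* and the marker genes were named after their values were seen. Replicate numbers were checked by how far same-numbered libraries deviated together. At day 21 the correlations of these deviations were 0.443, 0.128 and 0.658, all above the limit of 0.1, and on the other days at least 1 pair was at or under 0.1. Libraries of different numbers were not compared, so the check does not show that the number paired the libraries of day 21. Alternatives were DESeq2 1.42.0, scaling by RLE or by the upper quartile, filterByExpr or no count filter, the adjusted p alone, all 27 libraries in 1 fit, the replicate number as a block, and each library left out in turn. Leaving out 3 libraries together was added after seeing the data.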

Additional observations from a re-analysis of the deposited data

How the results depend on the processing

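Of 230 repeats of the *RGS2* values and of the counts of called members, 216 kept the value within the limits used. These limits were 1.5 times for a count and 1 SD for *RGS2*. In these repeats the DMSO counts included *RGS2*. All 56 repeats of *RGS2* stayed within its limit, which describes the processing only, since *RGS2* was chosen by these values. Its SD was 0.559 on the log2 scale at day 3, where the repeats gave -2.17 to -1.55. With the adjusted p alone the members called for FAKi were 1 at day 14 (12.4% of all genes) and 3 at day 21 (11.6%). In DMSO against day 0, without *RGS2*, they were 2 at day 7 (4.94%), 3 at day 14 (28.3%) and 6 at day 21 (44.9%). FAKi at day 7 had 1 call with no count filter (*RGS16*), where 220 genes or 0.65% were called in all against 6. FAKi at day 21 had 2 with all 27 libraries in 1 fit (6.94% of all genes). Leaving out 1 library gave 0 to 1 calls at day 3, where 1 appeared without DMSO day 3 replicate 1 (12.7% of all genes). At day 21 it gave 0 to 1. There 0 remained in 5 of 6 fits, which called 0.229 to 1.82% of all genes. The effect that differed among days had 3 calls without the 3 libraries farthest from their own groups (38.4% of all genes). The causes were not tested. With the replicate block the count at day 21 was 1 as without it, the number of all genes called was 2076 against 1226, and the block changed no other count of members. Of 17 reversals of sign, all came from leaving out 1 library and, *RGS2* apart, concerned values called in neither fit. On the log2 scale the ranges were, for FAKi, -0.15 to 0.18 (*RGS5*, day 7), -0.016 to 0.11 (*RGS20*, day 7), -0.066 to 0.31 (*RGS12*, day 7), -0.040 to 0.18 (*RGS12*, day 14), -0.13 to 0.045 (*RGS19*, day 21) and -0.058 to 0.022 (*RGS19*, mean), and in DMSO -0.15 to 0.48 (*RGS2*, day 3) and -0.019 to 0.21 (*RGS19*, day 7). *RGS1* and *RGS4* were too shallow for any test.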
